A study of Drosophila melanogaster with 44 samples.

Results

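ED1612 carriers were adult female flies in which a run of neighbouring genes on chromosome arm 2R of Drosophila melanogaster was present in 1 copy. They were chosen by genotype, as every array whose label names Df(2R)ED1612. This gave 9 of the 44 arrays of the series, and the other 35 arrays were the non-carriers. The question was which genes across the genome differ when this segment is in 1 copy.

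Df(2R)ED1612 is a deficiency, a chromosome that lacks a segment, carried over an intact homologue (+). The 3 single carriers were Df(2R)ED1612/+. The 6 double carriers, 1 array per genotype, carried it with Df(2L)ED3/+ or Df(2L)ED4559/+ on arm 2L, with Df(3R)ED7665/+, Df(3R)ED5071/+ or Df(3R)ED10953/+ on arm 3R, or with Df(2R)ED1770 on the opposite homologue. The non-carriers were 6 arrays of wild type, 16 arrays with 1 of the other 6 deletions and 13 with a pair of them. Every sample held 15 whole females aged 0 to 24 h, from cultures kept at 25 °C. Replicates are called biological in the labels, with no word on separate crosses, so p-values measure the spread between these samples. Each sample is whole flies, so fewer cells of a type and less RNA per cell cannot be told apart.

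Loss of 1 copy of a gene usually lowers its RNA, and a gene that keeps more of its RNA than its share of copies is called buffered. The segment removed by ED1612 holds a cluster of tetraspanin genes, which encode membrane proteins that organise other proteins at the cell surface. It also holds Vha16-1, the proteolipid of the V-ATPase, the proton pump that acidifies lysosomes, endosomes and synaptic vesicles. The pump has a membrane part, V0, which carries protons, and a part in the cytosol, V1, which splits ATP.

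Values are the authors' RMA expression values on the log2 scale. Differences below, called carriers minus non-carriers, are log2 ED1612 terms from 1 additive limma fit, unless another contrast is named. The fit has a term for each of the 7 deletions, so that a double carrier counts under both of its deletions. The ED1612 term holds the other deletions fixed, so it can differ from the plain gap between group means. For the gene AkhR it was 0.49, while the mean was 8.67 in carriers and 8.28 in non-carriers. Percentages of the non-carrier level are this term turned into a ratio. A gene passed at an adjusted p under 0.05, Benjamini-Hochberg over all 7485 tested genes. Array medians lay between 5.50 and 5.73, and correlations between arrays between 0.929 and 0.997. Of the 9 male markers, 8 had carrier medians between 3.09 and 4.26, and the seminal protein gene Acp95EF stood between 5.93 and 6.91 in carriers and between 5.67 and 7.06 in non-carriers. The female germline gene osk stood between 10.59 and 11.92 in carriers. The 6 chorion genes, made by late follicle cells, had medians between 4.31 and 5.76 in carriers and between 4.32 and 5.88 in non-carriers, while their highest values reached 4.94 to 7.63 in carriers and 12.94 to 14.10 in non-carriers. The germline list of 43 genes lay between -0.49 and 0.49 relative to the wild-type mean in carriers and between -0.70 and 1.08 in non-carriers, and the eggshell and yolk list of 17 genes between -2.14 and 0.09 against -2.38 and 2.84. The part of ovary content in the results was not tested beyond the fits that carry the germline list as a covariate. Wild-type arrays had the lowest running numbers in the labels, and 6 of the 9 carriers were numbered up to 26 and 3 from 27. Running number and deletion cannot be told apart in comparisons with wild type.

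The interval was mapped from the 19 double arrays alone as a run of lower neighbours on 2R. It ran from bin3, a homologue of the RNA methyltransferase MePCE, to the tetraspanin gene Tsp42El. It held 68 genes, and the 50 of them whose mean level reached 6 entered the tests. The single and wild-type arrays by themselves, and all 44 arrays together, gave the same ends. Over the 50 genes the ED1612 difference had a median of -0.84, or 55.7% of the non-carrier level, and ran from -1.19 to -0.41. In the single carriers against wild type, arrays that the mapping did not use, all 50 differences were below 0, and 27 of 50 passed as lower and 0 as higher in limma. Among genes outside the 7 mapped intervals 0.0417% passed as lower and 0.0695% as higher in the same contrast. The median there was -0.87, against -0.03 for the genes outside. The 18 genes below a mean of 6 had a median difference of -0.26, from -0.96 to 0.05. RMA can compress differences at low values, and its part in these differences was not tested.

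Per array, the median over the interval genes, taken relative to the wild-type mean, lay between -0.92 and -0.79 in the 3 single carriers and between -0.85 and -0.73 in the 6 double carriers. The 35 non-carriers lay between -0.22 and 0.17, so the groups did not overlap. The means were -0.85 ± 0.07 (SD, n = 3) in singles, 55.7% of wild type, and -0.80 ± 0.04 (SD, n = 6) in doubles, 57.3%. The 3 single carriers differed from the 22 other arrays with at most 1 deletion with p = 0.00087 (exact two-sided permutation test), the smallest these group sizes allow.

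**Figure D1:**
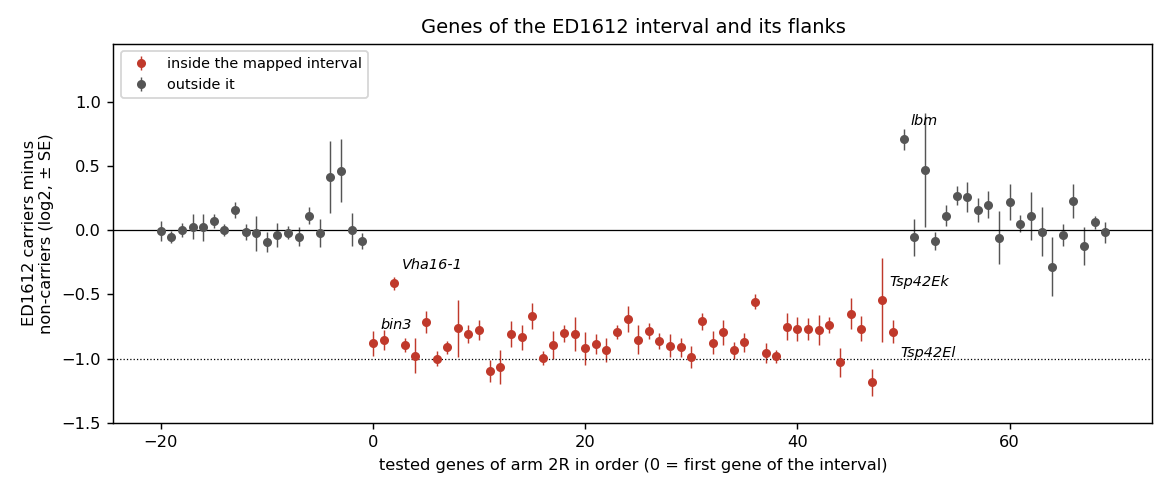
ED1612 difference (log2, carriers minus non-carriers, ± SE) of each tested gene in and around the interval, in gene order along arm 2R, where 0 is the first interval gene. The interval genes lie between -1.19 and -0.41, with Vha16-1 at the upper end, and lbm, the first tested gene beyond the last interval gene, lies at 0.71.

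Over all arrays 5 of the 50 genes lay at or below -1, 44 between -1 and -0.5, and 1 above -0.5. The mapping used part of these arrays, so these are descriptions. Among the 5 were Tsp42Ej (-1.19), PGAP3 (-1.09), an enzyme that remodels the lipid of membrane anchors, and Debcl (-1.0), a Bcl-2 family protein of cell death. Debcl stood at 8.21, 8.19 and 8.22 in the single carriers and between 8.12 and 8.32 in the doubles. It stood between 8.98 and 9.79 in wild type and between 8.98 and 9.50 in the other deletions. For 21 of the 50 genes, Debcl among them, all 9 carriers lay below all 35 non-carriers. Others of this kind were Trap1, a mitochondrial chaperone (-0.90), Mccc2, a subunit of the leucine-degrading enzyme methylcrotonyl-CoA carboxylase (-0.89), Mob4 (-1.0), the phospholipase gene Pld (-0.86) and koi, a protein of the nuclear envelope (-0.91). Outside the intervals 0.0139% of genes had such a separation to the low side.

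Differences in the single carriers alone were largest for CG17266 (-1.51), Tsp42Ek (-1.38), Bap170, a subunit of the PBAP chromatin remodelling complex (-1.26), PGAP3 (-1.15) and bin3 (-1.13). They were smallest for Vha16-1 (-0.21), Tsp42Ee (-0.27), hlk (-0.38), CG3270 (-0.38) and Epac, a cAMP-activated exchange factor (-0.41). None of these 5 passed in the single carriers, nor did Tsp42Ek or Bap170. Tsp42Ek had the largest SE of the 50 genes. It stood at 6.37, 7.13 and 5.71 in the singles, between 5.08 and 8.12 in the doubles and between 5.25 and 9.13 in the other deletions, and its difference over all arrays, -0.54 ± 0.32 (SE), did not pass (limma adjusted p = 0.747). Bap170 stood at 6.23, 6.41 and 6.75 in the singles, between 6.60 and 6.91 in the doubles and between 7.01 and 8.77 in wild type, and from 7.05 upwards in the other deletions, so its levels did not overlap.

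The 11 tested Tsp42E genes of the interval had a median difference of -0.77, from -1.19 for Tsp42Ej to -0.54 for Tsp42Ek. Tsp42Ej stood at 8.61, 8.43 and 8.57 in the singles and between 8.26 and 8.71 in the doubles. It stood between 8.61 and 9.93 in wild type and between 9.31 and 10.27 in the other deletions, so only wild type reached into the carrier range. Tsp42Ef, with levels from 8.17 to 8.63 in carriers and from 8.67 to 9.53 in non-carriers, passed in the single carriers (-0.74, limma adjusted p = 0.00258).

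SdhB, the iron-sulfur subunit of succinate dehydrogenase in the respiratory chain, stood at 11.47, 11.52 and 11.35 in the singles, between 11.14 and 11.67 in the doubles and at a median of 12.28 in the other deletions. Its difference in the single carriers was -0.65 (limma adjusted p = 0.0242). The genes of its membrane partners SdhC (-0.03) and SdhD (-0.04), outside the interval, did not pass. Mccc2 had a difference of -0.99 in the single carriers (limma adjusted p = 0.00176), and its partner Mccc1 one of 0.10 over all arrays that did not pass. SdhC, SdhD and Mccc1 were named after their values were seen. Tdc1, which makes tyramine, stood at -0.81 over all arrays and -0.65 in the singles, where it did not pass.

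Vha16-1 had the smallest difference of the 50 genes over all arrays. It stood at 13.04, 13.11 and 13.34 in the single carriers and between 12.93 and 13.26 in the doubles. Wild type ran from 13.15 over a median of 13.41 to 13.46, and the other deletions from 13.30 over 13.55 to 13.80. Of the 9 carriers 1, a single, reached the range of the other deletions. The difference was -0.41 ± 0.05 (SE), 75.1% of the non-carrier level. Its difference from wild type in the single carriers alone, -0.21, did not pass (limma adjusted p = 0.401).

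Directly beyond Tsp42El lies lbm (late bloomer), a tetraspanin known from the growth of motor synapses, and it was higher in carriers. It stood at 7.63, 7.37 and 7.48 in the singles and between 7.54 and 7.78 in the doubles. In wild type it ran from 6.30 over 6.81 to 7.13 and in the other deletions from 6.42 over 6.99 to 7.39. The difference was 0.71 ± 0.08 (SE; limma adjusted p = 2.96e-08), or 1.63-fold. It passed in the single carriers against wild type (0.72, adjusted p = 0.0457) and against the mean of the other 6 deletions (0.61, adjusted p = 6.45e-07), and without any 1 array it stayed between 0.67 and 0.73. The next tetraspanin genes, Tsp42En (-0.06) and Tsp42Ep (0.47), did not pass. Neither did the genes before bin3, which were Ttc7 (-0.09), Ptr (0.00) and CG11211 (0.46). Over the 15 tested tetraspanin genes outside the intervals, in a list that does not hold lbm under its own name, 0 passed in limma, 1 had an unadjusted p under 0.05, and the median was 0.11. Of all tested genes outside the intervals 7.15% had such an unadjusted p.

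Outside the 7 intervals 36 of 7191 genes passed (0.501%), of which 25 were higher (0.348%) and 11 lower (0.153%) in carriers. At an unadjusted p under 0.05 there were 514 (7.15%). Differences were small, under 0.5 in size for 26 of the 36. All 36 had the same sign in the single carriers against wild type and in the doubles alone, where the contrast is against the mean of the other 6 deletions. These arrays are part of those that made the calls, so the shared sign is a description and no separate support. The calls lay on every arm but the small chromosome 4, with 4 on 2L, 6 on 2R, 10 on 3L, 11 on 3R and 5 on X.

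**Figure D2:**
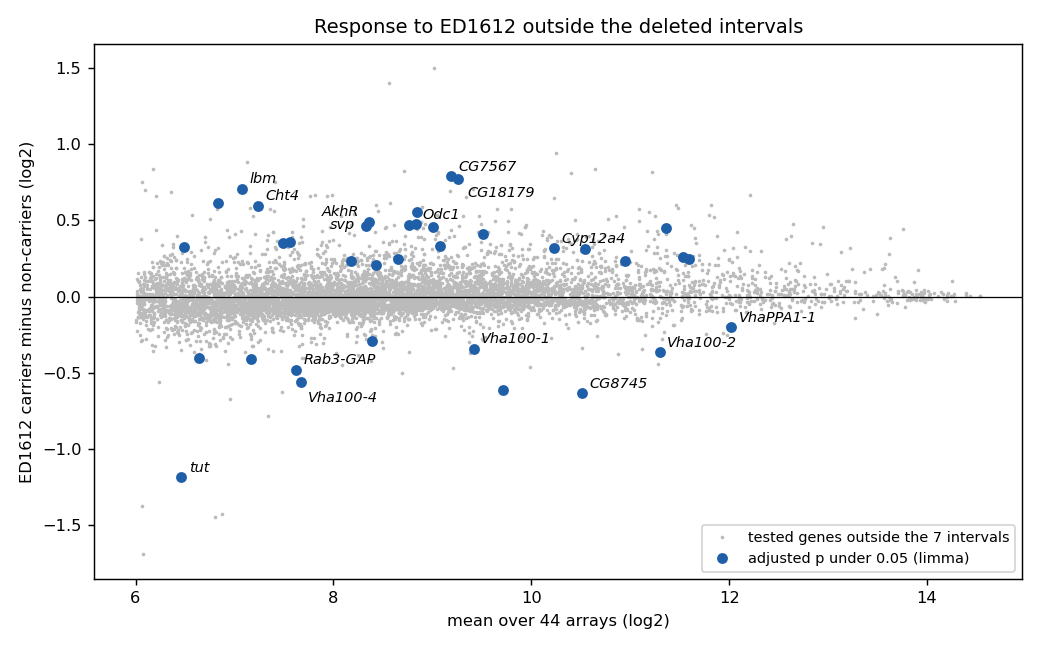
ED1612 difference (log2, carriers minus non-carriers) against the mean level over all 44 arrays (log2) for the 7191 tested genes outside the 7 intervals. Blue points are the 36 genes that passed, 25 above and 11 below 0, and the largest of them, tut, lies at -1.19.

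Of the 36 genes, 14 passed whichever 1 of the 44 arrays was left out. They were lbm, Rab3-GAP, Vha100-1, Vha100-2, Vha100-4, svp, AkhR, Cyp12a4, Bcat, Oatp74D, nebu, tut, CG42246 and CG3906. The other 22 lost the call without at least 1 array. A block for running numbers up to 26 and from 27 kept all 36, as did the germline list as a covariate. Without the wild-type arrays 14 of the 36 passed. Within the arrays numbered up to 26 all 36 kept their sign, and from 27, with 3 carriers, 34 did. No array from 27 is wild type. There, and in the fit without wild type, the baseline is inferred from arrays with 1 and 2 deletions through the additive terms. These differences are therefore not taken from the same baseline as those up to 26. Both sets are again part of the arrays that made the calls.

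With the replicate numbers as a block all 36 genes kept their sign, but only 15 passed, while 413 genes passed in all. The 15 were lbm, Rab3-GAP, Vha100-1, Vha100-2, Bcat, nebu, Oatp74D, D2hgdh, MTF-1, CG18179, CG7567, CG3906, CG34043, CG32243 and Cht9. Among the 21 that did not were tut (limma adjusted p = 0.113), svp (0.145), AkhR (0.124), Cyp12a4 (0.0595), CG42246 (0.09) and Vha100-4 (0.518). Same-numbered ED1612 arrays deviated together with those of ED10953, ED1770, ED3 and ED4559, with correlations between 0.30 and 0.70, but not with those of wild type (0.51, -0.17 and -0.24). Wild-type replicates 4 to 6 share their number with no other group, so the block takes them out of the comparison. The 19 doubles formed 1 level of their own in the block. Since each carries 2 deletions, they then inform only differences between deletions and not the comparison with wild type. Whether calls were lost through this or through the pairing of replicates was not tested.

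Of the proton pump genes, 4 of the V0 part were lower in carriers. Outside the intervals these 4 of 9 tested V0 genes passed as lower and 0 as higher, beside 0.153% lower and 0.348% higher over all tested genes there. The median of the 9 was -0.20, against -0.01 for all tested genes outside the intervals. The 4 genes were Vha100-1, Vha100-2 and Vha100-4, which encode forms of the large a subunit, and VhaPPA1-1, which encodes a proteolipid related to Vha16-1. Of the 8 tested V1 genes 0 passed in limma, and they lay between -0.12 and 0.08. Of 32 V-ATPase genes on the array 21 were tested. Over the 20 of them outside the intervals the median was 0.00. Of these 20 genes 5 had an unadjusted p under 0.05, against 7.15% of all tested genes outside the intervals. With the replicate block Vha100-1 (-0.38) and Vha100-2 (-0.28) passed, and Vha100-4 (-0.16, limma adjusted p = 0.518) and VhaPPA1-1 (-0.11, adjusted p = 0.461) did not. The split into V0 and V1 is textbook knowledge and was made after the values were seen, and the difference between the parts was not tested.

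Vha100-4 stood at 7.26, 7.71 and 7.20 in the single carriers and between 6.89 and 7.41 in the doubles. Its wild-type levels ran from 7.37 over 7.65 to 7.88 and those in the other deletions from 7.23 over 7.77 to 8.34, so the groups overlapped. All 9 carriers lay below the non-carrier median. The difference was -0.56 ± 0.10 (SE; limma adjusted p = 0.000115). It was -0.37 within the arrays numbered up to 26, where it did not pass (adjusted p = 0.0812). Within those from 27, which hold no wild-type array, it was -1.06 (limma adjusted p = 0.00155).

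Vha100-2, the neighbour of Vha100-4 on arm 3R, stood at 10.91, 10.86 and 11.14 in the singles and between 10.84 and 11.19 in the doubles. The wild-type arrays ran from 11.17 over 11.23 to 11.39 and the other deletions from 11.08 over 11.42 to 11.66. All 9 carriers were below the non-carrier median, and the difference was -0.37 ± 0.05 (SE; limma adjusted p = 4.15e-06), 77.5% of the non-carrier level. Vha100-1, the form best known from neurons, stood at 9.12, 8.99 and 9.44 in the singles and between 8.99 and 9.36 in the doubles, against a median of 9.48 both in wild type and in the other deletions. All 9 carriers were again below the non-carrier median (-0.34 ± 0.06, limma adjusted p = 7.19e-05). In the single carriers against wild type alone, Vha100-2 (-0.28), Vha100-1 (-0.28) and Vha100-4 (-0.27) did not pass. VhaPPA1-1 stood at -0.09 there.

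VhaPPA1-1 had the smallest of these differences, -0.20 ± 0.05 (SE; limma adjusted p = 0.0405). It stood at 11.82, 11.77 and 12.03 in the singles, between 11.70 and 12.05 in the doubles, and at medians of 11.94 in wild type and 12.09 in the other deletions. The call was lost without any 1 of 12 arrays, with an adjusted p of up to 0.201 without the double with ED1770. Vha100-5, the other a subunit gene that was tested, stood at -0.28 and did not pass (adjusted p = 0.349). The other tested V0 genes, VhaM9.7-a, VhaM9.7-b, VhaM9.7-c and VhaAC39-1, lay between -0.05 and 0.08.

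**Figure D3:**
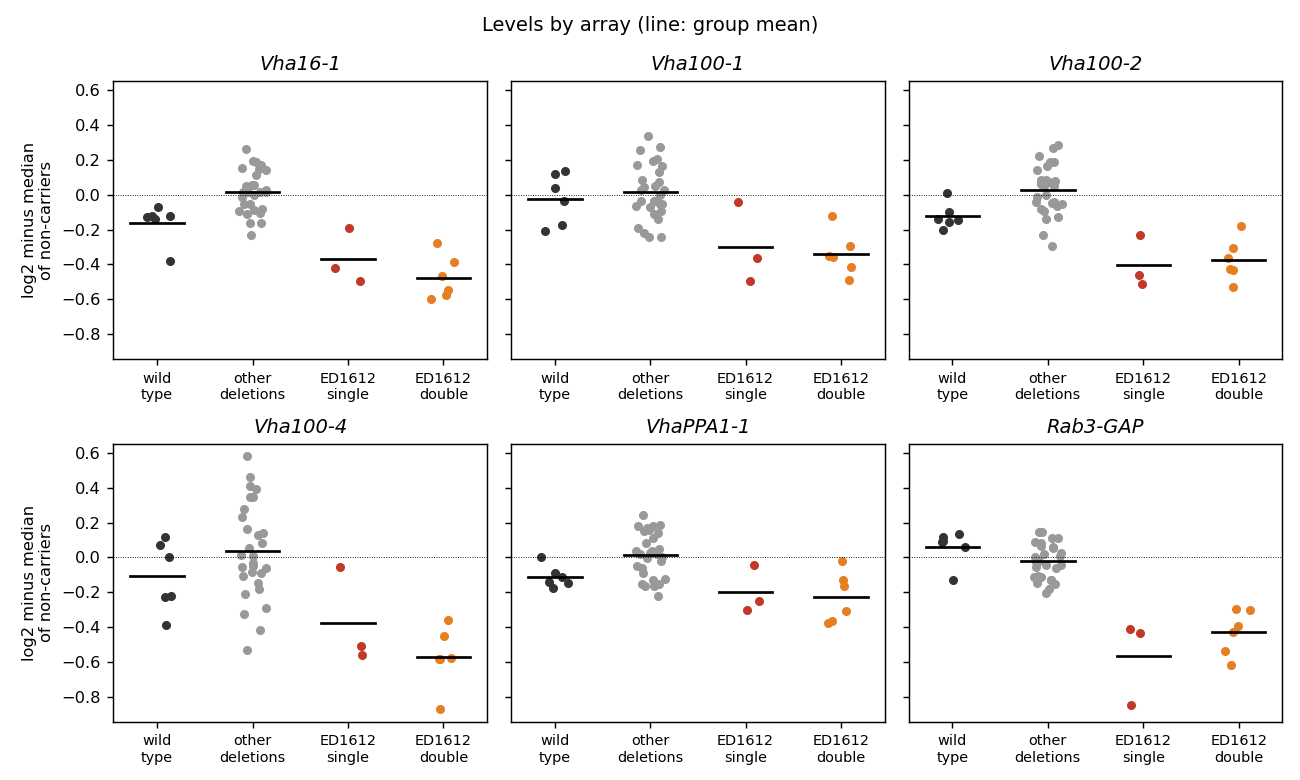
Level of 6 genes on each array (log2 minus the non-carrier median, 1 point per array, line at the group mean), for wild type (6 arrays), other deletions (29), ED1612 singles (3) and ED1612 doubles (6). Carriers of all 5 V-ATPase genes lie below the non-carrier median but overlap non-carriers, and for Rab3-GAP no carrier overlaps a non-carrier.

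The same V0 genes were compared with the other deletions. In none of the other 6 deletions did a V0 gene outside the intervals pass, and the 4 genes had terms there between -0.24 and 0.14 with a median of 0.02. The difference from the mean of the other 6 deletions passed for all 4. It was -0.50 for Vha100-4 (limma adjusted p = 0.000695), -0.42 for Vha100-2 (1.75e-07), -0.34 for Vha100-1 (7.59e-05) and -0.23 for VhaPPA1-1 (0.00549), and all 4 also passed in this contrast with the replicate block. All these contrasts share the 44 arrays.

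**Figure D4:**
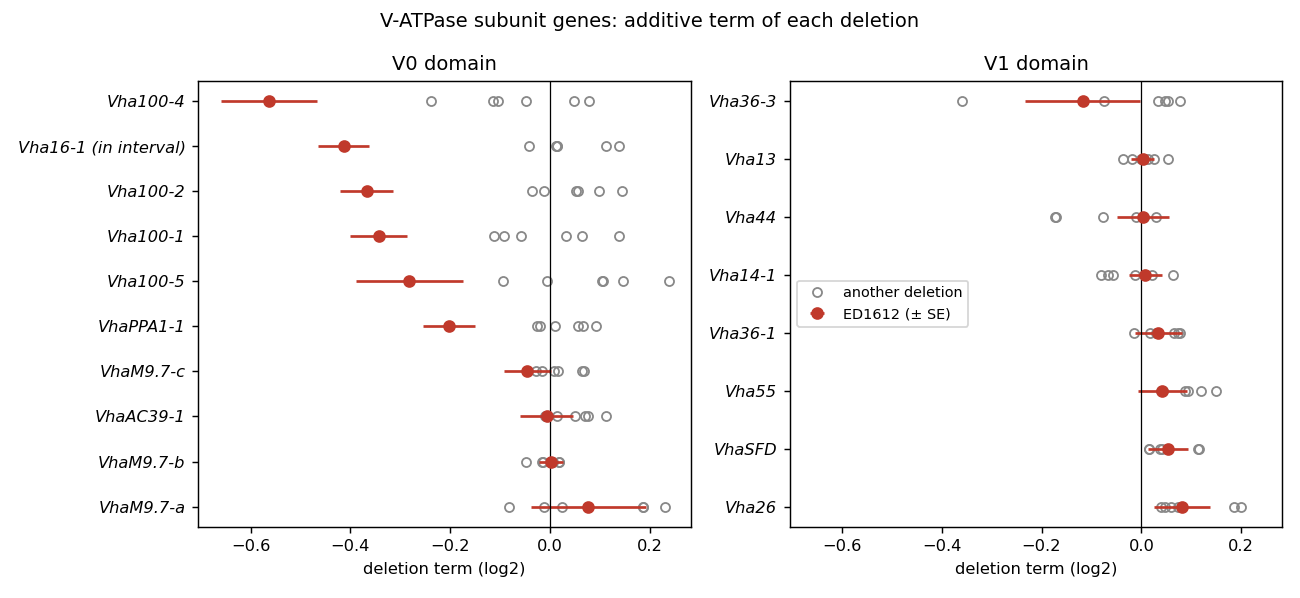
Additive term (log2) of each of the 7 deletions for the V0 genes (left) and V1 genes (right) of the V-ATPase, red for ED1612 with ± SE and grey for the other deletions. The tested a subunit genes and Vha16-1 lie further below 0 in ED1612 than in any other deletion. The tested V1 genes lie between -0.12 and 0.08 in ED1612.

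Rab3-GAP, a subunit of the enzyme that switches off the vesicle GTPase Rab3 and is known from synaptic homeostasis, had the smallest adjusted p among genes outside the intervals. It stood at 7.29, 7.32 and 6.88 in the singles and between 7.11 and 7.43 in the doubles. Wild type ran from 7.60 over 7.82 to 7.86 and the other deletions from 7.52 over 7.71 to 7.87. It was the only tested gene outside the intervals in which all 9 carriers lay below all 35 non-carriers. The difference was -0.48 ± 0.05 (SE; limma adjusted p = 2.26e-09), 71.7% of the non-carrier level. It passed in the single carriers against wild type (-0.62, adjusted p = 0.00176), against the mean of the other 6 deletions (-0.45, adjusted p = 1.01e-08) and within both sets of running numbers (-0.44 and -0.50). Rab3-GAP lies on arm 2L. Of 21 synaptic transmission genes 0 passed and 0 had an unadjusted p under 0.05, against 7.15% of all tested genes outside the intervals.

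The largest fall among the genes that passed was that of tut, which encodes an RNA-binding protein known from the male germline. It stood at 5.55, 6.01 and 4.68 in the singles, between 4.99 and 6.92 in the doubles, from 6.47 over 7.09 to 8.83 in wild type and from 4.35 over 6.44 to 8.33 in the other deletions. The groups overlapped, and 8 of 9 carriers were below the non-carrier median. The difference was -1.19 ± 0.25 (SE; limma adjusted p = 0.00447). The tut term was -1.32 in ED4559 and -1.01 in ED10953, and the ED1612 difference from the mean of the other 6 deletions, -0.78, did not pass (adjusted p = 0.111).

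CG8745, a predicted aminotransferase, had a difference of -0.64 (limma adjusted p = 0.00656), but 6 of 9 carriers stood above the non-carrier median. The 3 singles lay at 10.80, 10.81 and 10.74, and the low values were those of the doubles with ED10953 (8.87), ED4559 (9.10) and ED5071 (8.62). The call was lost without any 1 of these 3 doubles, with an adjusted p of up to 0.0671. CG17571, a predicted trypsin-like protease (-0.62, adjusted p = 0.0196), had all 9 carriers below the non-carrier median. It too lost the call without any 1 of 3 double carriers, with an adjusted p of up to 0.0929 without the double with ED4559. The remaining falls were CG42246 (-0.41), ebd2 (-0.40) and CG32243 (-0.29). Against the other 6 deletions, CG42246 (-0.46, adjusted p = 0.000364) and ebd2 (-0.51, adjusted p = 0.00238) passed and CG32243 (-0.09) did not.

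Among the rises, svp, a nuclear receptor of the COUP family, stood at 8.50, 8.70 and 8.51 in the singles and between 8.40 and 8.87 in the doubles. In wild type it ran from 7.35 over 8.16 to 8.37 and in the other deletions from 7.87 over 8.29 to 8.90. Every carrier lay above every wild-type array, and carriers overlapped the other deletions. The difference was 0.46 ± 0.08 (SE; limma adjusted p = 0.000237), and it passed against the other 6 deletions (0.31, adjusted p = 0.0295). With the mean of all its probe sets it did not pass (adjusted p = 0.051).

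AkhR, the receptor for adipokinetic hormone, which releases stored fat and sugar, stood at 8.66, 8.49 and 8.69 in the singles and between 8.57 and 8.86 in the doubles. Its wild-type levels ran from 7.06 over 8.07 to 8.37 and those in the other deletions from 7.92 over 8.36 to 8.98. All 9 carriers were above the non-carrier median, and the difference was 0.49 ± 0.11 (SE; limma adjusted p = 0.00669). It did not pass without wild type (0.37, adjusted p = 0.0635), against the other 6 deletions (0.30, adjusted p = 0.184) or with the mean of all its probe sets (adjusted p = 0.313). AkhR was the only one of 20 lipid synthesis and lipolysis genes to pass, beside 0.348% of all tested genes that passed as higher. The list had 18 genes above 0, a median of 0.20 and 10 genes at an unadjusted p under 0.05, against 7.15% of all tested genes outside the intervals.

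In the list of cytochrome P450 and conjugating enzymes, which modify toxins and hormones, 3 of 103 genes passed as higher, beside 0.348% of all tested genes, and 0 as lower. The list had a median of 0.10 and 26 genes at an unadjusted p under 0.05, against 7.15% of all. Cyp12a4, a mitochondrial P450, stood at 10.31, 10.52 and 10.48 in the singles and between 10.31 and 10.62 in the doubles, against medians of 10.10 in wild type and 10.20 in the other deletions. All 9 carriers were above the non-carrier median (0.32 ± 0.06, limma adjusted p = 0.00126), and it passed against the other 6 deletions (0.25, adjusted p = 0.0155). Its neighbour on arm 3R, Cyp12a5 (0.33, adjusted p = 0.0418), did not pass without the double with ED10953 (adjusted p = 0.249). GstD9, a glutathione transferase, had a difference of 0.55 (adjusted p = 0.0418). It ranged from 8.10 in the double with ED7665 to 9.98 in the double with ED1770, and without that last array it stood at 0.45 and did not pass (adjusted p = 0.263).

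The chitinase genes Cht4 (0.60) and Cht9 (0.62) are direct neighbours on arm 2R. Cht4 stood at 6.97, 7.32 and 7.03 in the singles, and its highest values were 8.90 in the double with ED4559 and 8.27 in that with ED1770. Cht9 followed the same order, with 6.48, 6.94 and 6.49 in the singles and 8.31 and 7.88 in those doubles. Without the double with ED4559 neither passed, with differences of 0.42 for Cht4 (adjusted p = 0.0929) and 0.45 for Cht9 (adjusted p = 0.244). Within arrays numbered from 27 the differences were 0.03 and -0.01.

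CG7567 (0.79) and CG18179, a predicted serine protease (0.78), had the largest rises among the genes that passed. CG7567 stood at 9.66, 9.88 and 9.10 in the singles and between 8.70 and 10.98 in the doubles, against 7.68 to 9.68 in wild type, and its difference was 1.08 up to number 26 and 0.01 from 27. CG18179 stood at 9.99, 10.15 and 10.41 in the singles and between 9.18 and 10.38 in the doubles, against 6.74 to 10.54 in the other deletions. It was also higher than in the other 6 deletions (0.93, limma adjusted p = 0.00257). Neither gene passed without the double with ED10953 (adjusted p = 0.151 for CG7567 and 0.16 for CG18179).

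Odc1, which makes the polyamine putrescine, rose by 0.47 (limma adjusted p = 0.0498). It passed in 13 of the 44 fits that left out 1 array, and without the double with ED1770 its adjusted p was 0.224. CG3906 (0.45), CG6602 (0.47) and CG34043 (0.46) rose against the fit's baseline, but their differences from the other 6 deletions were 0.12, 0.03 and 0.04 and did not pass. Of the 36 genes, 21 also passed against the other 6 deletions, and all 21 did so with the replicate block too.

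The remaining calls were all rises and were named because they complete the 36. Bcat, which starts the breakdown of branched-chain amino acids, stood at 0.41, Oatp74D, the importer of the moulting hormone ecdysone, at 0.35 and nebu at 0.31. CG34376 (0.36), CG2736 (0.34), CG12116 (0.26), TBC1D5 (0.25), D2hgdh (0.25), CG32687 (0.23), Dph1 (0.23) and the metal-responsive factor MTF-1 (0.21) were the others. Bcat, Oatp74D, nebu, CG34376, CG2736, D2hgdh, TBC1D5, Dph1 and MTF-1 also passed against the other 6 deletions.

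**Figure D5:**
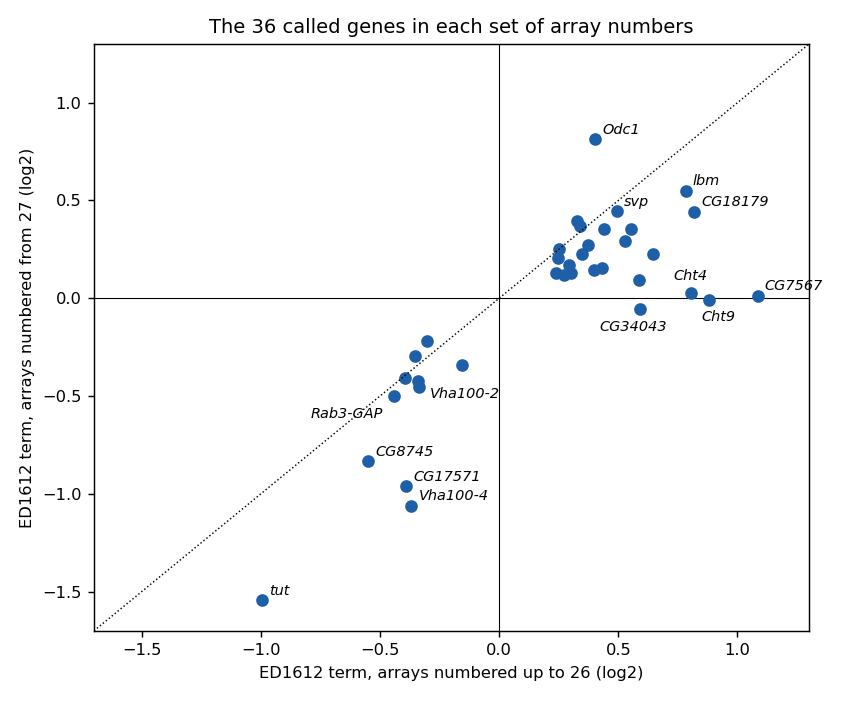
ED1612 term (log2) of the 36 genes that passed, within arrays numbered up to 26 (x axis, 6 carriers) and within arrays numbered from 27 (y axis, 3 carriers); the dotted line marks equal values. Of the 36 points 34 have the same sign on both axes, and Cht4, Cht9, CG7567 and CG34043 lie near 0 on the y axis. Both sets are part of the arrays that made the calls. The set from 27 holds no wild-type array, so its baseline is inferred through the additive terms.

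Apart from the V-ATPase, P450 and lipid lists, no gene list had a member that passed. The proteasome list, named for the complex that degrades proteins, had 0 of 30 genes passing and 4 at an unadjusted p under 0.05, with 27 below 0 and a median of -0.11. Digestive serine proteases had 0 of 26 passing and 1 unadjusted (median 0.16), and other digestive genes 0 of 34 passing and 12 unadjusted (median 0.20). The chaperone list had 0 of 23 passing and 0 unadjusted (median -0.06). Mitochondrial ribosomal proteins had 0 of 68 passing and 1 unadjusted, with 64 below 0 and a median of -0.04. Odorant binding proteins had 0 of 23 passing and 6 unadjusted (median -0.19). The germline list had 0 of 41 passing and 0 unadjusted (median 0.01), and the eggshell and yolk list 0 of 17 and 3 (median 0.09). All these counts are from limma. Of all tested genes outside the intervals 7.15% had an unadjusted p under 0.05, and the median over all of them was -0.01.

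Set against the mean of the other 6 deletions, 75 genes were higher (1.04%) and 12 lower (0.167%) in ED1612, 1.21% in all. With the replicate block these were 358 and 84, and all 87 genes still passed. The largest differences by the naming rule were teq, a neurotrypsin-like protease (1.21), CG18179 (0.93) and CG3999, a subunit of the glycine cleavage system (0.92). On the low side they were Syt7, a synaptotagmin (-1.53), CG40298 (-0.68) and Spn47C, a serpin (-0.59). For teq the single carriers stood at 10.63, 10.39 and 10.64, inside the wild-type range of 9.81 to 10.67, while the other deletions ran from 5.92 over 9.67 to 10.61. Syt7 stood at 4.79, 6.01 and 4.71 in the singles and between 4.92 and 8.11 in the doubles, against 4.33 to 4.74 in wild type and a median of 7.97 in the other deletions. The ED1612 terms of teq (0.49) and Syt7 (0.14) did not pass.

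Over all tested genes outside the intervals, 1.04% were higher and 0.167% lower in this contrast. By gene list, 4 of the 20 V-ATPase genes were lower and 0 higher. Of the 20 lipid synthesis and lipolysis genes 2 were higher, ACC, the first enzyme of fatty acid synthesis (0.24), and mdy, which makes triacylglycerol (0.20). Both were picked with their values in view, and their ED1612 terms, 0.18 and 0.17, did not pass. Of the 103 P450 and conjugating enzymes 1 was higher, Cyp12a4, a share near that over all tested genes. Among 15 tetraspanin genes and among 23 iron and zinc transport genes 1 each was higher. Among 21 synaptic transmission genes and among 23 odorant binding protein genes 1 each was lower. The list of glycolysis and the citric acid cycle had 0 of 18 genes passing in limma and a median of -0.02.

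Against ED1770, the other deletion of arm 2R, 23 genes were higher (0.32%) and 10 lower (0.139%), 0.459% in all. Same-numbered arrays of the pair deviated together (correlations between 0.64 and 0.70), and with the replicate block 118 were higher and 40 lower, all 33 among them. The highest by the rule were teq (1.27), CG4995 (1.05) and lbm (0.78), and the lowest tut (-2.02), Cpr72Ec, a cuticle protein gene (-1.0), and CG5953 (-0.79). The tut term was -1.19 in ED1612 and 0.83 in ED1770. The lbm term was 0.71 in ED1612 and -0.07 in ED1770. For CG4995, Cpr72Ec and CG5953 the ED1612 terms were 0.37, -0.02 and 0.03, and none passed.

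A second deletion did not change the ED1612 difference of any gene detectably. In limma, 0 genes passed for the difference between double and single carriers, and 348 of 7191 (4.84%) had an unadjusted p under 0.05. For Vha16-1 the difference of double minus single was -0.06, for Rab3-GAP 0.17 and for lbm 0.17, and none of these passed. The design has 1 array per double genotype, so the departure of a single genotype was not tested.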

How the data were processed

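The authors deposited 1 log2 value per probe set and array, made with RMA (background correction, normalisation between arrays and summary of probes), per the submitters' processing notes. The log base was read from the range of values, 2.58 to 14.66. Not given in the sources used here are the RMA version, the genome build and the version of the platform annotation. Of 18952 probe sets 13647 carried 1 gene symbol, 402 several and 4903 none, and 13543 matched a Release 6 gene, which gave 11893 genes. Release 6 served for names and gene order only. A gene with several probe sets was represented by the one with the highest mean, and 7485 genes with a mean of 6 or more were tested, 294 of them inside the 7 intervals and left out of counts.

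All 44 arrays entered 1 limma fit (limma 3.58.1, R 4.3.3) of an intercept and 7 additive deletion terms, with eBayes (trend option on) and Benjamini-Hochberg adjustment at 0.05. The contrasts were the ED1612 term, that term minus the mean of the other 6 and minus ED1770, the ED1612-by-double term, and single carriers minus wild type in a fit of group means over 25 arrays. For each deletion the interval was the run of lower neighbours with the best score (offset 0.3, limit 0.7 per gene). The exact permutation test and tables used Python 3.11.15, scipy 1.17.1, numpy 2.4.6 and pandas 2.3.3, and figures matplotlib 3.10.9. Before use the fit was tested on simulated data of 7485 genes, where it recovered 39 of 100 changes of 0.25 and 90 of 100 of 0.5, with 4 false calls. The simulated noise was normal and independent between genes and arrays, whereas part of the real arrays deviated together. These counts therefore describe the fit under that noise and not its error rate on these data.

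The members, the 35 gene lists and the tests were chosen with earlier results of these data known. Genes were named by rule: the 12 largest rises and falls that passed with 1 sign in singles and doubles, up to 4 passing members of each list, the interval's ends and its 5 largest and 5 smallest differences in singles, 3 flanking genes on each side, and the 3 largest passing differences in each direction of the other contrasts. Other genes are said to be named after their values were seen. The replicate numbers, for which the labels name no shared cross or day, paired part of the samples. Deviations of same-numbered arrays correlated over 0.1 in all 3 pairs of ED1612 with 4 of the deletions (0.30 to 0.70), but not with wild type (0.51, -0.17 and -0.24), ED5071 (0.0953 and 0.142) or ED7665 (0.216 and -0.317). The fit without a block is therefore given first. The block, in which the doubles formed 1 level of their own, is given beside it. The number of arrays limits the precision.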

Additional observations from a re-analysis of the deposited data

Results flagged for a closer look

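In the wild-type group 5 values stood apart from the other 5 arrays by Dixon's test at the 95% level, of 50 groups tested, and chance alone gives about 1 in 20. Replicate 4 held 4 of them. It had Rab3-GAP at 7.60 (nearest 7.78), Vha16-1 at 13.15 (nearest 13.39), CG42246 at 6.63 (nearest 7.13) and a median over the ED1612 interval genes of -0.22 relative to the wild-type mean (nearest 0.02). In each case it was the lowest wild-type array, and for Rab3-GAP it still lay above all 9 carriers. GstD9 stood at 8.93 in wild-type replicate 5 (nearest 8.58), the highest of that group.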

How the results depend on the processing

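The level of the interval genes in single carriers stayed between -0.87 and -0.81 without any 1 array and kept its call under all 35 alternatives. Single arrays of the other deletions enter the permutation test but not the level, which stayed at -0.85 without them by construction. The double minus single contrast gave 0 genes in all 59. Counts of genes outside the intervals moved more. The 36 genes of the carrier comparison became 92 with array weights (a fit that warned of incomplete convergence), 64 with an array-number block, 7 within arrays from 27, 110 with the germline covariate, 133 with germline and eggshell covariates, 8 in singles and wild type, and 129 in doubles alone, where only the contrast against the mean of the other 6 can be estimated. Leaving out 1 array gave 18 to 46, with 18 without the double with ED1770, 21 without that with ED10953 and 22 without that with ED4559. The 87 genes of the contrast with the other 6 deletions became, in the order array weights, array-number block, up to 26, from 27, germline, both covariates, without wild type and singles with wild type, 681, 55, 19, 11, 231, 236, 131 and 4. Leaving out 1 array gave 54 to 129, with 54 without the double with ED1770, and 55 without that with ED4559 or ED1612 replicate 1. The 33 genes against ED1770 became in the same order 1165, 75, 8, 18, 107, 123, 70 and 2, with 71 without wild-type replicates 4 and 5 and 77 in doubles alone. Leaving out 1 array gave 19 (without ED4559 with ED1770) to 56 (without wild-type replicate 4). Quantile normalisation changed the split to 47 higher and 18 lower against the other 6, and to 10 and 12 against ED1770. The 27 interval genes called in singles became 47 with array weights, 13 up to number 26 and 42 with both covariates, and 20 to 33 without 1 array. The replicate block, whose numbers pair ED1612 with 4 deletions but not with wild type, gave 413, 442, 158 and 42 in these 4 comparisons. It kept 15 of the 36 genes, and all of the 87, 33 and 27. The array-number block with the germline covariate, chosen after seeing the data, gave 236, 210, 206 and 46. Leaving out the doubles of ED4559 with ED1612 and with ED1770, also chosen after seeing the data, gave 21, 47 and 17. Within arrays from 27 the difference turned negative for CG34043 (-0.055) and Cht9 (-0.0069). The interval level could not be computed there, since no wild-type array has such a number. The causes were not tested.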
